A study of Mus musculus with 12 samples.

Results

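The step from juvenile to adult cortex was read from 2 of the 12 mouse arrays of a series on models of Alzheimer's disease and ageing, the array of 1.5-month-old and the array of 4-month-old C57BL/6 mice. The arrays of 17 and 22 months were then used to see whether the 4-month level was kept. Of 20864 genes with a probe on the array, 14907 (71.4%) were well above background on both arrays, by the scanner software's own flag on the same probe, and these are the genes measured here. A further 266 genes were above background only at 1.5 months, 471 only at 4 months, 6 on both arrays but by different probes, and 5214 on neither.

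The mice were untreated, non-transgenic males raised free of specific pathogens, housed singly and fasted overnight before sacrifice, so juvenile and adult animals share all of these conditions. The tissue is labelled as the prefrontal part of the cortex. Each array held RNA pooled from 3 animals, amplified and labelled with 1 dye. There is 1 array per age, so no difference between ages has a replicate check and no test or p-value is given. In bulk tissue, fewer cells of a type and less RNA per cell cannot be told apart. Values are log2 signals after quantile normalization, in which a difference of 1 is a 2-fold difference, and the signal of one gene is never set against that of another.

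In the weeks between weaning and adulthood the rodent cortex is still being wrapped in myelin. Oligodendrocyte precursors leave the cycle, pass through a short differentiating stage marked by genes such as Gpr17 and Bmp4, and then make the lipids and membrane proteins of the sheath. Over the same period blood vessels and meninges slow their growth and lay down less collagen, and fast-spiking interneurons that hold parvalbumin take on their adult firing properties.

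The labels were first set against marker genes. Xist, which silences the second X chromosome of females, was not above background on any of the 4 cortex arrays, and the Y-linked genes Ddx3y (10.36 to 10.91) and Eif2s3y (10.10 to 10.51) were above it on all of them. Slc17a7, the vesicular glutamate transporter of cortical excitatory neurons, read 12.03, 12.08, 12.36 and 12.20 at 1.5, 4, 17 and 22 months. The 4 arrays had 66.1% to 67.0% of probes above background and between 180 and 234 spots marked as outliers, and no spot was saturated. The 17-month array stood apart in choroid plexus, the tissue that makes cerebrospinal fluid. Ttr, its defining transcript, read 5.11 at 1.5 months, 6.06 at 4 months, 15.57 at 17 months and 6.85 at 22 months. Of 16 choroid plexus markers, 8 were not above background on both younger arrays, and the median of the other 8 was -0.16 at 4 months, 2.13 at 17 months and 0.23 at 22 months, relative to 1.5 months. Results at 17 months are therefore always given next to those at 22 months.

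Most genes read nearly the same at both ages. Over the 14907 genes the median log2 ratio of 4 over 1.5 months was 0.01, with quartiles at -0.15 and 0.17 and an SD of 0.34. At least 2-fold higher at 4 months were 151 genes (1.01%), and 95 (0.637%) were at least 2-fold lower. At a threshold of 1.5-fold the counts were 592 higher (3.97%) and 530 lower (3.56%). Of the 2-fold genes 61.4% were higher, but with each array scaled to its 75th percentile in place of quantile normalization this share was 47.0%, from 135 higher and 152 lower genes, so the balance between the directions depends on the scaling. For technical spread, 285 probes are printed in 10 spots on each array, and the median SD of their log2 ratio was 0.08 over all of them, 0.17 for 55 probes under a log2 signal of 7 and 0.06 for 129 probes over 10. This covers spots of 1 array only and neither the labelling nor the animals. Among the 2-fold genes, all probes pointed the same way in 18 of 18 higher and 7 of 7 lower genes that have several probes. Every probe passed 1.5-fold in 16 and 6 of them. The genes were chosen by the mean of these same probes, so a shared direction is no separate check.

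**Figure D1:**
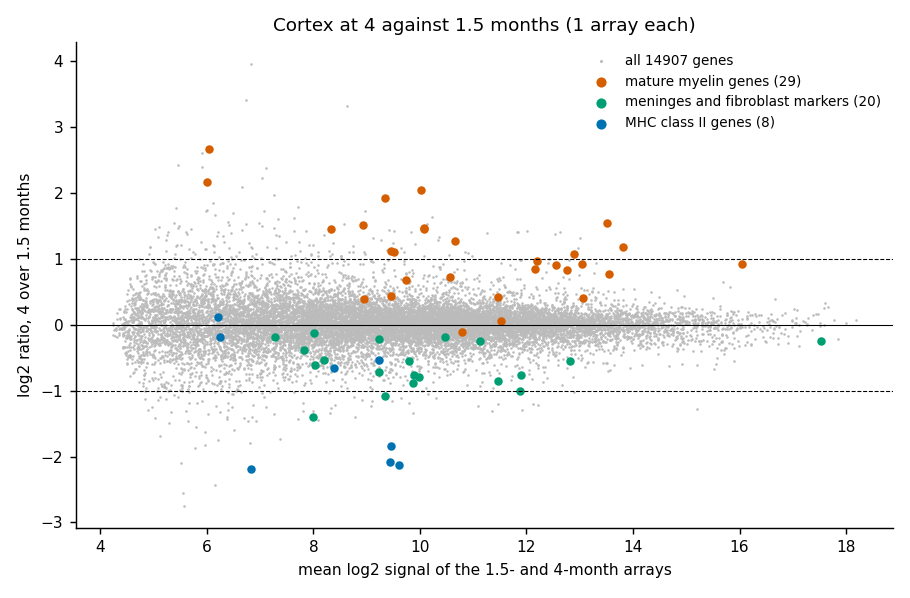
Log2 ratio of the 4-month over the 1.5-month cortex array (y axis) against the mean log2 signal of both arrays (x axis), 1 point per gene, for 14907 genes in grey, 29 mature myelin genes in orange, 20 meninges and fibroblast markers in green and 8 MHC class II genes in blue. Dashed lines mark a 2-fold difference, and 28 of the 29 myelin genes lie above 0 while all 20 meninges and fibroblast markers lie below it. The median over all genes is 0.01.

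Myelin genes made up the broadest block of higher signals at 4 months. Of 30 listed genes of mature oligodendrocytes 29 were measured (Myrf was not above background on both arrays), of which 23 passed 1.5-fold and 14 passed 2-fold towards a higher signal at 4 months, against 3.97% and 1.01% of all genes. None was 1.5-fold lower. Their median log2 ratio was 0.97, beside 0.01 over all genes. 

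The sheath's own proteins spanned a wide range of signals. Mobp, a small basic protein of compact myelin, read 9.36 at 1.5 months, 10.81 at 4, 9.02 at 17 and 10.33 at 22 months, with ratios of 1.46, 1.77 and 1.13 by its 3 probes. Opalin, a glycoprotein of the oligodendrocyte membrane, read 8.17, 9.68, 7.90 and 9.49, a 2.85-fold step. In both genes the 4-month array was the highest of the 4 and the 17-month array the lowest. Mag, which faces the axon, was 1.90-fold higher at 4 months, Mal 2.25-fold and Cnp 2.10-fold, and Mog 1.59-fold.

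Mbp, the basic protein that compacts the sheath, was the 1 myelin gene with a mean below 0, and its 3 probes did not move together. The first read 11.14 at 1.5 months and 12.00 at 4 months, a log2 ratio of 0.86. The second read 12.78 and 12.25, and the third 8.58 and 7.93, ratios of -0.54 and -0.64. Which transcripts each probe reads was not resolved, so the mean of -0.11 is no statement about the gene as a whole.

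Among enzymes of myelin lipid, Fa2h, which hydroxylates the fatty acids of galactolipids, read 9.33, 10.80, 9.45 and 10.47 at 1.5, 4, 17 and 22 months, a 2.77-fold step. Ugt8a, which adds the galactose, read 8.89, 10.01, 9.12 and 9.46. Aspa, which frees acetate from N-acetylaspartate, read 8.95, 10.05, 9.32 and 9.97. All 3 were more than 2-fold higher at 4 months and back under 1.5-fold at 17 months. Gal3st1, which sulfates the galactolipid, was at 1.35-fold.

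Channel and support genes of the same cell included some of the larger ratios. Klk6, a secreted protease of oligodendrocytes, read 4.70 at 1.5 months, 7.37 at 4, 6.04 at 17 and 6.90 at 22 months, a 6.35-fold step from a dim start. Hapln2, a link protein of the nodes of Ranvier, read 4.91, 7.08, 7.06 and 7.30, and stayed level after the 4.48-fold step. Il33, an alarmin held in oligodendrocyte nuclei among other cells, read 8.996, 11.04, 9.78 and 10.98, a 4.12-fold step. Anln, which organises septins in myelin, was 3.76-fold higher, and Trf, the iron carrier that oligodendrocytes make, 2.92-fold with both of its probes past 2-fold (1.43 and 1.66 on the log2 scale). The connexins of oligodendrocytes differed in size, with Gjc3 at 2.73-fold and Gjb1 at 2.42-fold.

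Precursor and differentiating cell genes did not share this shift as a list. Of 23 measured, 3 were at least 1.5-fold higher and 2 lower, beside 3.97% and 3.56% of all genes, with a median of 0.19. Pdgfra, the receptor that marks precursors, read 9.71, 9.59, 9.62 and 9.67 over the 4 ages, where probes of 1 gene differ in log2 ratio by a median SD of 0.10 (3937 genes). Gpr17, the receptor of cells about to differentiate, read 12.13 at 1.5 months, 11.29 at 4, 10.56 at 17 and 11.25 at 22 months. Bmp4, a secreted inhibitor of maturation made by newly committed cells, read 10.20, 9.09, 10.08 and 9.12, and its ratio of -1.11 became -0.60 when every probe of the gene was averaged, dim ones included. Bcas1, of early myelinating cells, was higher instead, with 11.31, 12.72, 11.60 and 12.72. Enpp6, of the same list, was also higher at 4 months from a dim start, 1.85-fold, with ratios of 0.93 and 0.84 by its probes. It read 4.88, 5.76, 3.84 and 5.00, and was not above background at 17 months. Sox10, the transcription factor common to the whole lineage, read 9.95, 10.80, 10.71 and 11.05.

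The promoters of Opalin and Mobp are shown because they hold several copies of ACAAAG, the core letters bound by SOX factors such as Sox10. Sequences are from RefSeq, build GRCm38.p6, 250 bases before to 50 bases after the start of the gene on its own strand, at chr19:41077064-41077363 (minus strand) for Opalin and chr9:120149492-120149791 (plus strand) for Mobp. Capitals mark ACAAAG on either strand.
Opalin: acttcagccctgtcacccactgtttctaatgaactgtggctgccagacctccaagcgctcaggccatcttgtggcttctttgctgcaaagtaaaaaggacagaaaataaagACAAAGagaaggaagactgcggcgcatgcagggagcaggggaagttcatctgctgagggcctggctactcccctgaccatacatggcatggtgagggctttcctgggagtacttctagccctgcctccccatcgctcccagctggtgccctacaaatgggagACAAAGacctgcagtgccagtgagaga
Mobp: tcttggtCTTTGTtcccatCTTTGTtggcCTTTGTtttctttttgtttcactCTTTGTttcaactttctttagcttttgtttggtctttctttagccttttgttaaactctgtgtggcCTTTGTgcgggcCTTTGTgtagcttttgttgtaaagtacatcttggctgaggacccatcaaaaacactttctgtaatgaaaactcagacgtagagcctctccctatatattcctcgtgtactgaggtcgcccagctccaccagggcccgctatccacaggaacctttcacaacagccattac
Opalin holds 2 copies and Mobp 6. The letters occur in 8 of the 21 measured myelin genes that have an entry in the promoter table and are used here (38.1%), beside 5680 of 27025 genes in all (21.0%). The 8 are Apod, Cnp, Gjb1, Klk6, Mag, Mobp, Opalin and Tspan2. A match in letters is a description of the window and not a binding site.

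After 4 months the myelin genes did not all stay where they were. The 4-month array was the highest of the 4 in 26 of 29 genes. Relative to 1.5 months the median was 0.25 at 17 months, with 10 of 29 genes under the 1.5-month value, and 0.65 at 22 months, with 2 under it. Over all genes the median was 0.01 at 17 months and 0.03 at 22 months. No share over all genes was counted for the highest array or for values under that of 1.5 months. Of the 14 genes with a 2-fold step, 5 were past the midpoint between the 1.5- and 4-month values at 17 months (Anln, Gjb1, Hapln2, Klk6 and Trf) and 13 at 22 months, all but Gjc3. The same 5 were past it at both ages, beside 33.0% of all genes, and no share over all genes was counted for either age alone. The 17-month dip stood beside the choroid plexus signal given above, and its part in the dip was not tested.

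**Figure D2:**
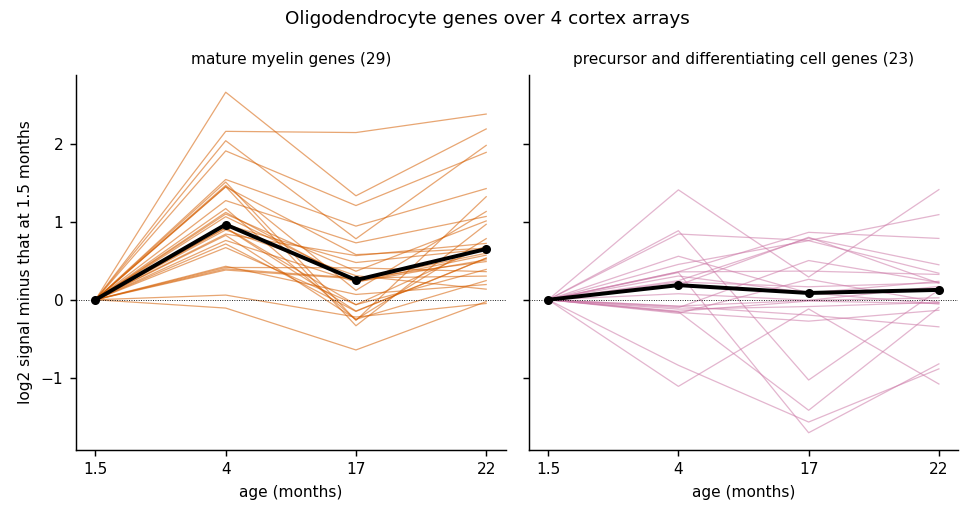
Log2 signal minus that at 1.5 months (y axis) at the 4 ages in months (x axis, evenly spaced), 1 thin line per gene and the median in black, for 29 mature myelin genes (left) and 23 precursor and differentiating cell genes (right), 1 array per age. The myelin median is 0.97 at 4 months, 0.25 at 17 and 0.65 at 22, while the precursor lines spread to both sides of 0 at every age.

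MHC class II genes, which present antigens of ingested proteins and in healthy brain are found mostly in macrophages and dendritic cells of its borders, were lower at 4 months. H2-Aa, the alpha chain of I-A, read 7.93 at 1.5 months, 5.74 at 4, 6.37 at 17 and 6.16 at 22 months, a 4.56-fold lower signal at 4 months. H2-Ab1, its beta chain, read 10.47, 8.39, 9.46 and 9.10, with ratios of -2.09 by both probes. H2-Eb1, the beta chain of I-E, read 10.66, 8.54, 9.68 and 9.15, 4.36-fold lower at 4 months. Cd74, the invariant chain that escorts them, read 10.38, 8.54, 10.14 and 9.07, 3.57-fold lower. In these 4 genes the 1.5-month array was the highest and the 4-month array the lowest. 

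The rest of the class II pathway differed less. H2-DMb1, a chain of the peptide exchanger, was 1.57-fold lower and H2-DMa 1.45-fold lower, while H2-Oa and H2-Ob, which restrain that exchanger, had log2 ratios of -0.19 and 0.11. H2-Eb2, H2-DMb2 and Ciita, the coactivator of the class II promoters, were not above background on both arrays. In all, 5 of 8 measured genes were at least 1.5-fold lower and none higher, beside 3.56% of all genes lower, with a median of -1.25. This list was drawn up after the values were seen. At the older ages its median relative to 1.5 months was -0.42 (17 months) and -0.79 (22 months), between the juvenile and the 4-month level.

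The promoters of H2-Aa and H2-Eb1 are shown for the Y box, GATTGG, the letters of class II promoters that NF-Y binds (RefSeq, GRCm38.p6, 250 bases before to 50 after the start). H2-Aa lies at chr17:34287774-34288073 (minus strand) and H2-Eb1 at chr17:34305617-34305916 (plus strand), and capitals mark GATTGG on either strand.
H2-Aa: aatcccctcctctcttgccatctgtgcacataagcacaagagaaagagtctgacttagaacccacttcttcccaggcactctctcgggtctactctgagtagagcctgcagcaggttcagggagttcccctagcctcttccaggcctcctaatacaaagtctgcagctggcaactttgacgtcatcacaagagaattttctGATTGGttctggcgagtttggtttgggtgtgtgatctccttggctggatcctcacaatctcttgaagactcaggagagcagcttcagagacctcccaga
H2-Eb1: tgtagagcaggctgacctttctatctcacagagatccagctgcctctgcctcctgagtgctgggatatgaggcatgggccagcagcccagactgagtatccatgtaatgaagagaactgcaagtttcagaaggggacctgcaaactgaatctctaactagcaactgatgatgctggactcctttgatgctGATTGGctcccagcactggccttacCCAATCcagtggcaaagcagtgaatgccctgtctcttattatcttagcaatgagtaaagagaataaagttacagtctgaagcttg
H2-Aa holds 1 copy, starting 49 bases before the start of the gene, and H2-Eb1 holds 2, the nearer of them 35 bases before it. The letters occur in 6 of the 6 measured class II genes with an entry in the table, also in those whose signal moved little, and in 4924 of 27025 genes in all (18.2%).

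Other immune genes did not follow. Of 19 measured MHC class I and peptide loading genes 2 were at least 1.5-fold lower and 1 higher, with a median of -0.15. H2-Q5, a class I gene of the Q region, read 8.24, 6.51, 7.46 and 7.30, and its close relatives may share the probe. Tap2, of the peptide pump, was higher at 9.39, 10.19, 10.09 and 9.72. Macrophage and dendritic cell genes of the brain's borders were mixed, with 4 of 17 higher and 2 lower, among the latter the mannose receptor Mrc1 (8.67, 8.05, 8.002 and 7.60). Over all genes 3.97% were higher and 3.56% lower by 1.5-fold. The class I and border cell lists were also drawn up after the values were seen. None of 21 microglia markers was past 1.5-fold in either direction (median -0.04).

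Fibroblast and matrix genes were lower at 4 months. All 20 meninges and fibroblast markers read below their 1.5-month value, 10 of them by at least 1.5-fold and 3 by at least 2-fold, with a median of -0.58. Over all genes 3.56% were 1.5-fold lower and 0.637% 2-fold lower. Of 36 collagens, laminins and basement membrane genes 34 read below it, 14 by at least 1.5-fold, against the same 3.56%, and none higher by that much (median -0.53). Both lists share Col1a1, Col1a2 and Col3a1 among their 2-fold genes, so they are not separate counts. For the counts below the 1.5-month value no share over all genes was counted, and the median over all genes was 0.01.

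The fibrillar collagens had the largest steps. Col3a1 read 8.70 at 1.5 months, 7.30 at 4, 7.15 at 17 and 6.70 at 22 months, 2.64-fold lower at 4 months. Col11a1 read 5.73 and 4.32 and was not above background at 17 and 22 months. Col1a1 read 9.88, 8.80, 8.73 and 8.35, and Col1a2 12.38, 11.38, 11.83 and 11.23. Col1a1, Col1a2 and Col3a1 were past the midpoint towards the 4-month value at both older ages. In basement membrane, Col4a2 was 1.76-fold lower, Lamb1, a laminin chain, 1.68-fold, Nid1, which links laminin to collagen, 1.64-fold, and Fn1, fibronectin, 1.78-fold, while Lamc1 differed 1.14-fold.

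Transporters and signals of the meninges went a different way at 17 months. Slc13a4, a sulfate transporter of the arachnoid, read 11.89, 11.04, 12.11 and 11.22, and Slc22a6, an organic anion transporter, 10.31, 9.42, 10.70 and 9.77. Igf2, a growth factor made by meninges and choroid plexus, read 8.33, 7.72, 8.85 and 7.51. In all 3 the 17-month value was above that of 1.5 months and the 22-month value again below it. Over the whole list 10 of 20 markers were above and 10 below their 1.5-month value at 17 months, and all 20 were below it at 22 months (median -0.55). The median over all genes was 0.01 at 17 months and 0.03 at 22 months.

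**Figure D3:**
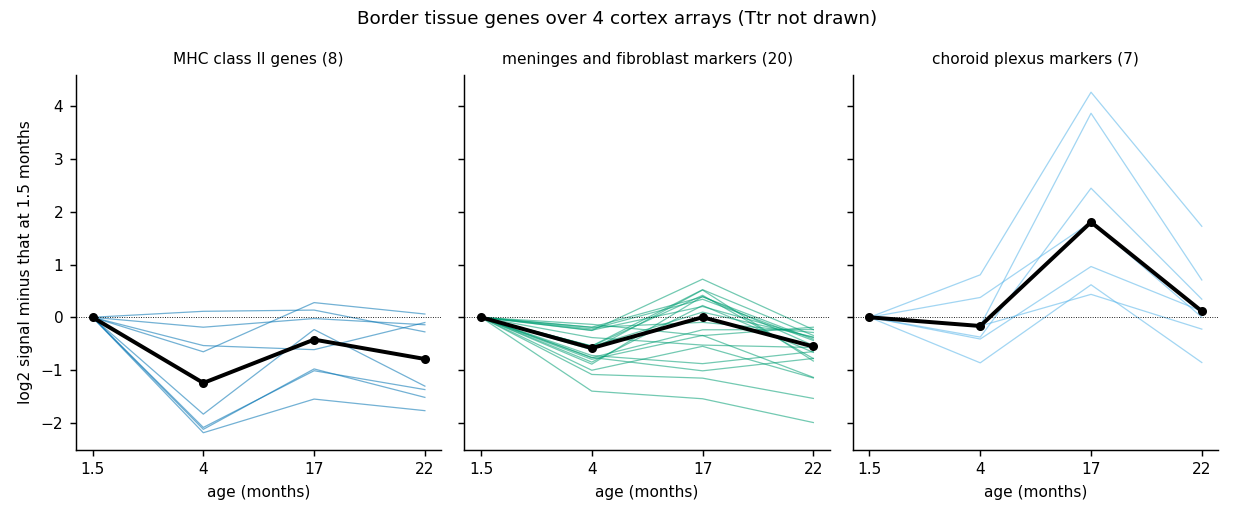
Log2 signal minus that at 1.5 months (y axis) at 1.5, 4, 17 and 22 months (x axis, evenly spaced), 1 thin line per gene and the median in black, for 8 MHC class II genes, 20 meninges and fibroblast markers and 7 choroid plexus markers without Ttr, whose 17-month value lies off the scale, 1 array per age. Class II and meninges medians are below 0 at 4 months (-1.25 and -0.58), and the choroid plexus genes stand out at 17 months.

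Of vessel wall genes, 5 of 16 smooth muscle and pericyte genes were at least 1.5-fold lower and 1 higher (median -0.20), beside 3.56% and 3.97% of all genes. The smooth muscle list too was drawn up after the values were seen. Cnn1, a calponin of contractile cells, read 8.81, 7.37, 7.89 and 7.87, and Acta2, smooth muscle actin, 11.35, 10.43, 11.23 and 10.82. None of 20 endothelium markers was past 1.5-fold (median -0.15). How much of the lower collagen and class II signals came from how much meninges was left on the dissected tissue was not tested.

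Some genes linked to fast-spiking interneurons were picked from the neuronal lists for high values at 4 months, so their direction is set by the choice. Syt2, the calcium sensor of fast-spiking terminals, read 5.65, 7.16, 5.73 and 6.22, and Scn4b, a sodium channel subunit of fast firing neurons, 11.93, 13.33, 12.43 and 12.61. Pvalb, parvalbumin itself, read 12.36, 13.18, 12.51 and 12.46, and Vamp1, a synaptic vesicle protein, 12.14, 13.04, 12.83 and 12.35. At 22 months each was within 1.5-fold of its 1.5-month value except Scn4b. The wider lists did not shift as lists, with 2 of 33 interneuron genes higher and 1 lower (Vip, a peptide of another interneuron class, 11.65, 10.94, 11.39 and 11.31), 2 of 52 potassium and sodium channel genes higher and 2 lower, and 3 of 35 synaptic genes higher and 1 lower. Over all genes 3.97% were higher and 3.56% lower by 1.5-fold. In the interneuron list 18 genes read above and 15 below their 1.5-month value at 4 months, with a median of 0.02. Of 16 GABA receptor subunits none and of 25 glutamate receptor subunits 1 (Grik3, 10.43, 11.06, 10.16 and 10.85) passed 1.5-fold.

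Layer markers moved both ways. Cux2, of upper layers, read 8.82, 7.78, 8.25 and 8.19, and Calb1, calbindin, 7.92, 7.21, 7.62 and 7.67. Foxp2, of layer 6, read 4.61, 6.15, 5.64 and 5.50 from a dim start, with ratios of 1.10 and 1.98 by its probes, and Tle4, of deep layers, 6.63, 7.39, 6.93 and 6.93. Scnn1a, of the same list, was also higher at 4 months (7.34, 8.06, 6.90 and 7.24). Over 19 layer and excitatory neuron markers 3 were at least 1.5-fold higher and 2 lower, beside 3.97% and 3.56% of all genes. Of 13 striatum markers 4 were at least 1.5-fold higher, beside 3.97% of all genes, among them the dopamine receptor Drd1 (7.42, 8.49, 7.75 and 8.61). Which depth of tissue each dissection held was not tested.

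The widest single steps were not those of the lists above. Xlr3b, an X-linked gene of a lymphocyte-regulated family with near-identical copies that its probes may share, read 4.84 at 1.5 months, 8.80 at 4, 7.19 at 17 and 6.67 at 22 months, 15.5-fold higher at 4 months by 2 probes (3.75 and 4.16). S100a8 read 5.03, 8.44, 8.15 and 5.68, and S100a9, its partner in calprotectin of neutrophils, 6.98, 10.29, 10.38 and 7.41. Lcn2, lipocalin of neutrophil granules and reactive cells, read 6.83, 8.45, 8.91 and 6.74. These 3 were high at 4 and 17 months and low at 1.5 and 22 months. Of 19 neutrophil genes with a probe 10 were measured, 4 higher and none lower by 1.5-fold (median 0.41), beside 3.97% and 3.56% of all genes. This list was drawn up after the values were seen and includes S100a8, so its count is no separate support. Elane and Mpo, of granules, had ratios of 0.15 and 0.25. In red blood cells, Slc4a1, the anion exchanger of their membrane, was likewise high at 4 and 17 months (5.50, 6.91, 7.26 and 5.51), while the list's other 6 measured genes were under 1.5-fold. All 7 read above their 1.5-month value at 4 months, for which no share over all genes was counted. Relative to 1.5 months the list's median was 0.34 at 4, 0.63 at 17 and -0.17 at 22 months, beside 0.01, 0.01 and 0.03 over all genes. The part of blood in these values was not tested.

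Further genes among the 12 largest increases included Spata31 (4.61, 7.20, 4.87 and 5.10), a gene of spermatogenesis that was high at 4 months alone and from a dim signal. Nfe2l3, a transcription factor, read 4.72, 7.10, 5.91 and 6.62. Depp1, a gene induced by fasting and FOXO factors, read 5.93, 8.29, 9.69 and 7.70. Prima1, which anchors acetylcholinesterase to membranes, read 5.93, 8.15, 7.12 and 8.27, and Lmnb1, lamin B1 of the nuclear envelope, 5.61, 7.69, 6.99 and 6.04. At 22 months Prima1 was at its 4-month value, and Lmnb1 was nearer to its 1.5-month value.

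Among the 12 largest decreases, Maats1, of motile cilia, read 6.94 at 1.5 months, 4.19 at 4, 4.92 at 17 and 5.52 at 22 months, 6.71-fold lower at 4 months. Tmem89 read 7.36, 4.93, 5.12 and 4.96. Both ended near the lower end of measurable signals, where spots of 1 probe spread most. Nkx2-5, a cardiac transcription factor, read 6.72 and 4.84 and was not above background at 17 and 22 months. Mybpc3, of heart muscle, read 7.70, 5.91, 6.07 and 6.42, and Mogat1, of triglyceride synthesis, 6.88, 5.06, 4.43 and 4.41. Outside these 12, Marcksl1, a growth cone protein, read 11.70, 10.47, 10.98 and 10.55. It was the 1 gene of 30 immature neuron and axon growth genes past 1.5-fold. Over all genes 3.97% were higher and 3.56% lower by that much.

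Whether the adult level was kept was described by the midpoint between the 1.5- and 4-month values, a comparison that shares both arrays with the choice of genes. Of the 151 higher genes 50 (33.1%) were past the midpoint on the 4-month side at both older ages, 13 at 17 months alone, 50 at 22 months alone and 38 at neither. Over all 14907 genes, whatever the size of their step, the share past it at both ages was 33.0%, so the share of the higher genes is at this background. Of the 95 lower genes 50 (52.6%) were past it at both ages, 11 at 17 months alone, 22 at 22 months alone and 12 at neither. Not above background at 17 or 22 months were 11 of the lower and 3 of the higher genes. All 11 such lower genes are among the 50 past the midpoint at both ages, so that share includes signals at the floor. The median of the higher genes relative to 1.5 months was 1.28 at 4, 0.50 at 17 and 0.93 at 22 months, and that of the lower genes -1.24, -0.83 and -0.98. Of the higher genes 41 and of the lower genes 40 lay within 1.5-fold of the 4-month value at both older ages. No share over all genes was counted for this nearness or for either older age alone.

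**Figure D4:**
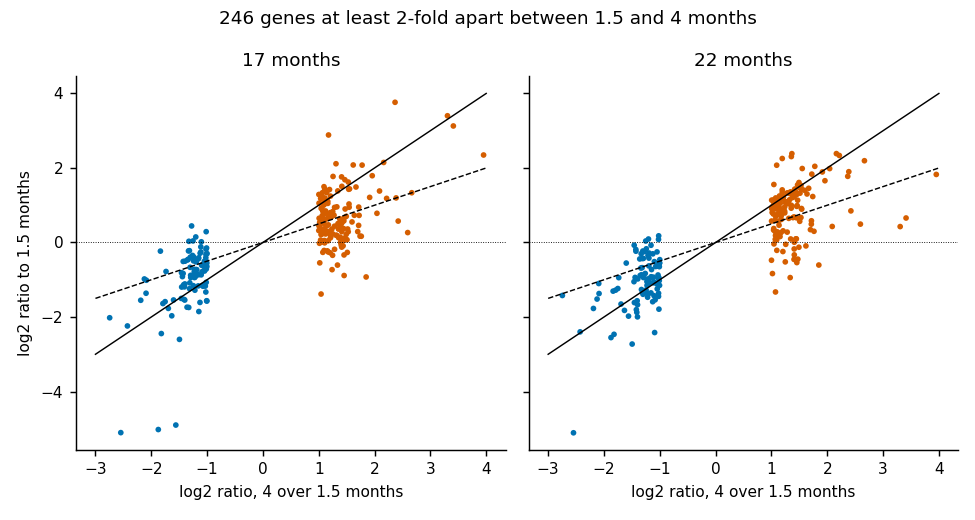
Log2 ratio to 1.5 months at 17 months (left) and 22 months (right) against the log2 ratio of 4 over 1.5 months, for the 246 genes at least 2-fold apart between 1.5 and 4 months (orange higher, blue lower), 1 array per age. The solid line is an unchanged 4-month level and the dashed line the midpoint. All axes share the 1.5-month array, and 63 of the 151 higher genes at 17 months and 100 at 22 months lie past the midpoint. The share over all genes was counted only for both ages together (33.0%), so these 2 counts have no background beside them.

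Counts were also made of genes for which 1 array stood at least 1.5-fold above the highest or below the lowest of the 3 others. The genes had to be above background at 1.5 and 4 months, while at 17 and 22 months they could fall below it. For 1.5 months 154 genes were higher (1.03%) and 148 lower (0.993%). For 4 months there were 89 higher (0.597%) and 54 lower (0.362%), for 17 months 187 (1.25%) and 177 (1.19%), and for 22 months 76 (0.51%) and 58 (0.389%). Over genes above background on all 4 arrays, where the ages are treated alike, the count in both directions was 283 for 1.5 months, 134 for 4 months, 327 for 17 months and 110 for 22 months. Counted in pairs over 14730 genes above background on all 4 arrays, the 4- and 1.5-month arrays differed 2-fold in 233 genes (1.58%). The pair of 22 and 4 months differed in 158 (1.07%), 22 and 17 months in 226 (1.53%), 17 and 4 months in 282 (1.91%), 22 and 1.5 months in 288 (1.96%) and 17 and 1.5 months in 322 (2.19%).

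Of the 14907 genes, 20 had a 1.5-month value at least 2-fold from all 3 adult values while those spanned 0.3 or less on the log2 scale. No count by this rule is given for the other arrays. These 20 genes were picked by their values, and 14 were lower and 6 higher at 1.5 months. Rnf216, a ubiquitin ligase, read 9.38 and then 10.91, 11.00 and 10.91, and Oaf 6.83 and then 8.61, 8.91 and 8.87. Tmem63a, a channel opened by stretch, read 9.06 and then 10.22, 10.17 and 10.24, and Gatm, which starts creatine synthesis, 9.55 and then 10.59, 10.74 and 10.69. In the other direction Pax3, a transcription factor of neural crest, read 5.97 and then 4.28, 4.20 and 4.32, of which the 17-month value was not above background.

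High at 4 months alone, and also picked by their values, were Marco, a scavenger receptor (5.19, 7.03, 4.26 and 4.58), the connexin Gjd3 (4.55, 6.31, 4.71 and 4.85) and Nyap1, a phosphoprotein of neurons (11.13, 12.54, 11.23 and 10.95). No second pool of animals was read at 4 months.

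**Figure D5:**
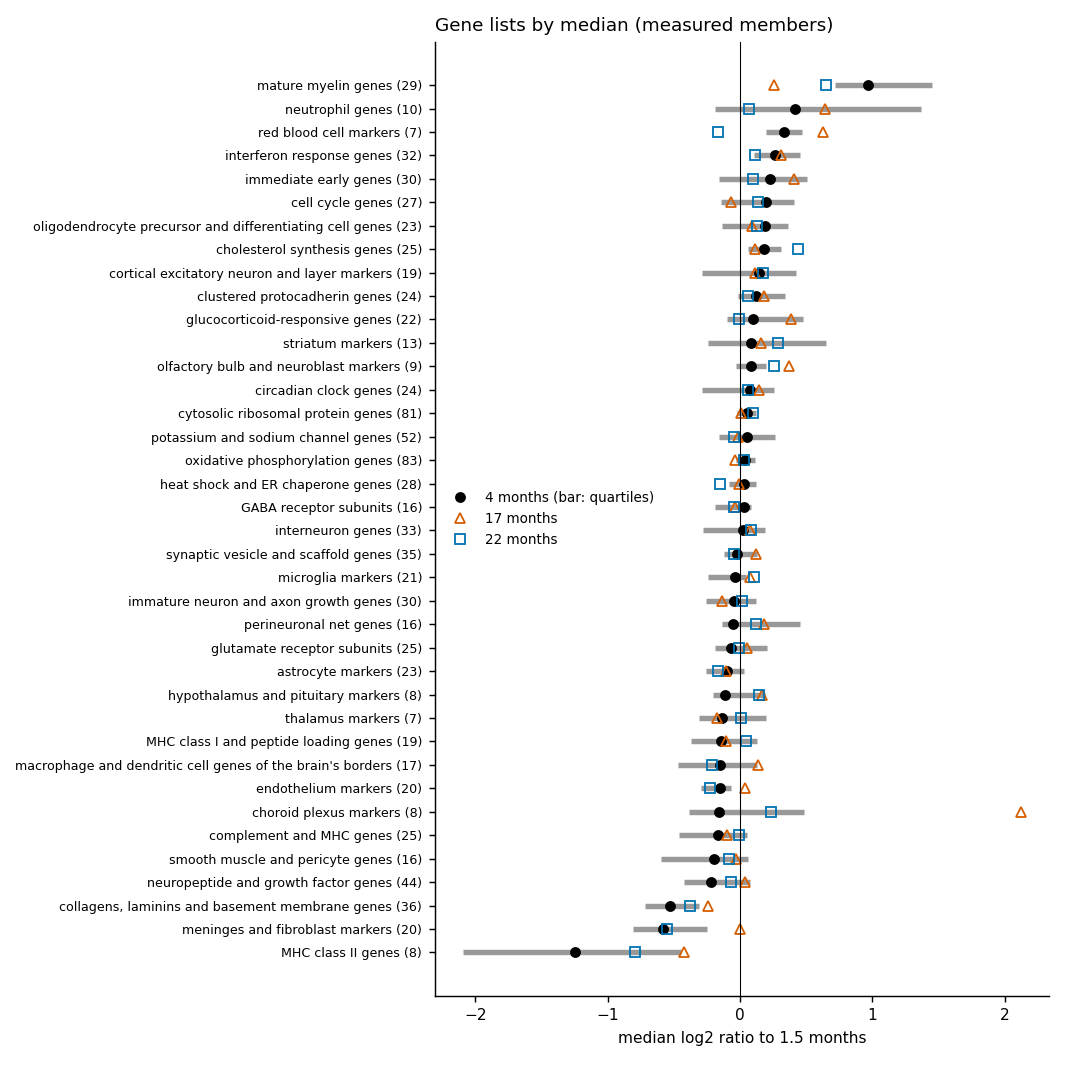
Median log2 ratio to 1.5 months (x axis) of 38 gene lists (y axis, number of measured members in brackets) at 4 months (black, with a bar over the quartiles of the members), 17 months (orange) and 22 months (blue), 1 array per age. Mature myelin genes lie farthest to the right at 4 months (0.97), and MHC class II, meninges and matrix genes farthest to the left.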

How the data were processed

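The authors hybridised amplified, labelled RNA, pooled from 3 animals per array, to Agilent mouse 44K arrays and extracted signals with Agilent Feature Extraction. The deposited scanner intensity (background-subtracted processed signal, linear scale) was used here for all 12 arrays. Control and outlier spots were left out, log2 taken, spots of a probe averaged, the 12 arrays quantile normalized, and the probes of a gene flagged well above background at both ages averaged. The matrix the authors deposited holds processed intensities of the same arrays on a linear scale. After log2 it served as an alternative, as did limma 3.58.1 normexp (R 4.3.3, offset 50), run on median signals. Other steps used Python 3.11.15, numpy 2.4.6 and pandas 2.3.3, and the counting steps were tested on simulated data. Of 39429 probes 27502 (69.8%) carry a gene symbol. With 1 array per age nothing was tested. The number of arrays limits the precision.

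Members and gene lists were chosen with earlier results of these data known. A set of 33 lists came first, and 5 more (class II, class I, border macrophages, smooth muscle, neutrophils) were chosen after values were seen. Named genes are the 12 largest changes each way whose foreground was at least 4 times background, with a symbol that is not a predicted gene, then the first 2 and up to 4 most changed members (at least 1.5-fold) of each list, and Xist, Ddx3y and Eif2s3y. Others are described as members of a list or as picked by their values. Promoter motifs were searched on both strands, leaving out chromosome 18. H2-Ab1 has no promoter entry. The positions of spots on the scan show that 17 and 22 months were on different slides. The slide of the others is not given in the sources used here. Some genes that these rules name are not reported here.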

Additional observations from a re-analysis of the deposited data

How the results depend on the processing

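With 1 array per age no array could be left out in turn. No paired analysis was possible because each age has a single array. Starting from median signals with normexp background correction and an offset of 50, choices that changed together, left 53 higher and 28 lower genes, of which 50 and 28 are among the 151 and 95, with 104 genes apart at 1.5 months (302 in the report's setting) and 39 at 4 months (143). It moved the median of MHC class II genes to -0.871 and of collagens to -0.336, and the share of lower genes kept to 39.3%. Filtering at 1.4 times the local background gave 577 higher and 435 lower genes, 830 and 539 apart and a class II median of -0.653. No filter gave 652, 508, 907, 620 and -0.654, and 25.2% of higher genes kept. These settings test more, mostly dim, genes. Scaling to the 75th percentile gave 152 lower genes, with all 95 among them. At 1.5-fold there were 592 higher and 530 lower genes and 41.5% of the lower kept, at 3-fold 26 and 16. At 2-fold apart 54 and 24 genes were left. Asking for 1.5-fold nearness to 4 months kept 42.1% of the lower genes. The mean of the myelin genes was 1.07. Of 145 named genes, 97 of them past 1.5-fold, Tpx2 alone of the 97 changed sign, at -0.444 (1.4-fold filter), -0.448 (no filter) and -0.448 (all probes), where a probe below background enters. Signals under a log2 of 7 limit what can be read from single genes such as Klk6, Spata31 and Maats1.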

Other observations

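Other lists, each by its members at least 1.5-fold higher and lower at 4 than at 1.5 months, beside 3.97% and 3.56% of all genes. Immediate early genes, which follow neuronal activity, had 6 of 30 higher and none lower. Arc, of synaptic scaling, read 12.35, 13.66, 14.47 and 13.39 at 1.5, 4, 17 and 22 months, Dusp1, a phosphatase, 9.22, 10.18, 10.48 and 9.80, and Egr1 went the other way at 14.01, 13.55, 13.20 and 13.24. Interferon response genes had 5 of 32 higher and 2 lower, with 28 of 32 above their 1.5-month value. Rsad2, an antiviral enzyme, read 6.38, 7.45, 7.72 and 6.68. Cholesterol synthesis and uptake genes had 2 of 25 higher and 1 lower, and 22 of 25 above 0. The share of all genes above 0 was not counted, and the median over all genes was 0.01.

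Neuropeptide and growth factor genes had 2 of 44 higher and 6 lower, among them Igfbp2, a carrier of insulin-like growth factors (12.41, 11.67, 12.55 and 11.62), and Wnt4 (10.29, 9.51, 9.87 and 10.12). Perineuronal net genes had 4 of 16 higher and 1 lower. The 4 were Hapln2, Has1, which makes hyaluronan (5.09, 6.23, 6.42 and 6.33), Adamts4, a protease also found in oligodendrocytes (7.81, 8.89, 7.55 and 8.72), and Acan, the net's main proteoglycan (6.24, 6.85, 6.63 and 6.34). Clustered protocadherins had 3 of 24 higher and 1 lower, circadian clock genes 2 of 24 and 1, glucocorticoid-responsive genes 3 of 22 and none, cell cycle genes 3 of 27 and none, chaperones 1 of 28 and 1, complement and MHC genes 1 of 25 and 5, of which 4 are the class II genes above, and astrocyte markers none of 23 and 1. No oxidative phosphorylation gene of 83 passed 1.5-fold, and 1 of 81 ribosomal protein genes did, Rpl5 (12.88, 13.66, 13.67 and 13.64). Hypothalamus and pituitary markers had 1 of 8 higher (Trh), olfactory bulb markers 1 of 9 (Th) and thalamus markers none of 7.

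Some genes outside the lists that oligodendrocytes are known to express were picked for high values at 4 months, so their direction is set by the choice. Prr18 read 11.12, 12.52, 11.10 and 12.35, S1pr5, a receptor for sphingosine phosphate, 8.80, 10.22, 9.35 and 10.24, Nkx6-2, a transcription factor of myelinating cells, 6.20, 7.93, 6.93 and 8.04, and Ppp1r14a 9.40, 11.04, 10.13 and 10.70. All 4 were lower at 17 months than at 4 and 22 months.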
